A study of Mus musculus with 10 samples.

Results

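The 9 genes described here carry salt and chloride across the small-intestinal epithelium or hold such transporters at the membrane. They were chosen by name: the sodium-hydrogen exchangers Slc9a3 (NHE3) and Slc9a2 (NHE2), the anion exchangers Slc26a3 (DRA) and Slc26a6 (PAT1), the chloride channel Cftr, the sodium-potassium-chloride cotransporter Slc12a2 (NKCC1), the Na,K-ATPase subunit Atp1b1, and the PDZ scaffolds Slc9a3r1 (NHERF1) and Pdzk1 (NHERF3). All 9 were found among the 35275 genes of the deposited table. RNA was sequenced from mechanically isolated jejunal epithelial cells of 10 adult mice on a C57BL/6 background, labelled male and all of the genotype VillinCreERT2;MYO5Bflox/flox. In these mice tamoxifen switches on a Cre recombinase driven by the villin promoter, which acts in intestinal epithelial cells. The 3 control mice (numbers 2, 4 and 5) received corn oil and were not induced. The 4 MYO5B-knockout mice (3, 5, 6 and 7) received 2 mg of tamoxifen once and an albumin-containing vehicle for 4 days, and the 3 LPA-treated MYO5B-knockout mice (1, 4 and 5) were given tamoxifen followed by intraperitoneal lysophosphatidic acid (LPA, 3 mg/kg) for 4 days. Tamoxifen itself therefore differed between control and knockout mice, and by this description so did the 4 days of vehicle or LPA. The part of these treatments in any difference from control mice cannot be told apart from that of MYO5B loss.

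Absorptive villus cells take up sodium chloride by running an apical sodium-hydrogen exchanger beside an apical chloride-bicarbonate exchanger, and the basolateral Na,K-ATPase keeps cell sodium low. Secretory cells, mostly in the crypt, bring chloride in across the basolateral membrane through NKCC1 and let it out through CFTR into the lumen, and water follows. PDZ scaffold proteins bind the tails of NHE3, CFTR and the anion exchangers and tie them to the brush border. MYO5B is a motor of recycling endosomes that delivers many of these proteins to the apical membrane, and its inherited loss causes a severe diarrhea of the newborn. RNA levels, the only measurement here, do not report where the proteins lie.

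The comparison of MYO5B-knockout with control mice asks which transporter RNAs differ after MYO5B loss, and the comparison of LPA-treated with vehicle-treated knockout mice asks which differ with LPA. Levels are FPKM, the fragments on a gene per kilobase of its length after division by the library's total on genes. Differences are log2 fold changes of FPKM + 0.1 from limma, fitted over the 15729 genes whose mean reached 0.1 FPKM, and an adjusted p under 0.05 is called a change. Between 10949420 and 24470409 reads per library lay on genes. The libraries of control mouse 2 and knockout mouse 3 detected 12242 and 12601 genes against 17309 to 18267 in the other 8, and mitochondrial genes took 17.4% and 18.0% of their reads against 1.98% to 3.50%. Values without these 2 libraries are given beside the others, a comparison chosen after seeing the data. Knockout mouse 3 and LPA-treated mouse 1 had reads on Xist and 0 reads on 4 Y-linked genes although the mice are labelled male. The description of LPA-treated mouse 1 names the vehicle in one sentence and LPA in the next, and the mouse was grouped by its title. Myo5b ranged from 16.5 to 32.0 FPKM over control mice and from 10.3 to 13.6 FPKM over the 7 tamoxifen-treated mice, so these groups did not overlap. Its log2 fold change was -0.96 in knockout and -1.10 in LPA-treated mice, which missed the threshold (limma's adjusted p = 0.115 and 0.0939) and passed it without the 2 libraries with few genes (limma's adjusted p = 0.0175 and 0.00550).

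None of the 9 genes was called changed in any of the 3 comparisons with all libraries. Against control mice, 0 of 9 passed limma's adjusted p in MYO5B-knockout mice, where 2.01% of all tested genes passed, and 0 of 9 in LPA-treated knockout mice, where 2.32% passed. Between LPA-treated and vehicle-treated knockout mice the share of all genes was 0% as well, with 459 genes at an unadjusted p under 0.05. At an unadjusted p under 0.05, there was 1 of 9 members in knockout mice (Pdzk1), where 17.6% of all genes were, 2 of 9 in LPA-treated mice (Slc9a3r1 and Pdzk1), where 16.4% were, and 0 of 9 between both knockout groups, where 2.92% were. On recovered reads edgeR called 0 members in each of the 3 comparisons, against 3.82%, 3.1% and 0% of all genes. DESeq2 called Pdzk1 in knockout mice (all genes 11.5%), Slc9a3r1 and Pdzk1 in LPA-treated mice (all genes 9.61%) and 0 members between both knockout groups (all genes 0.0224%).

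By group mean the lowest of the 9 RNAs in both knockout groups was Pdzk1, which encodes a scaffold with several PDZ domains that binds NHE3, CFTR and the anion exchanger PAT1. Control mice 2, 4 and 5 had 3.47, 52.6 and 36.8 FPKM of Pdzk1. Knockout mice 3, 5, 6 and 7 had 0, 1.33, 5.85 and 2.76 FPKM, and LPA-treated mice 1, 4 and 5 had 2.76, 3.58 and 0.0554 FPKM. All 7 knockout libraries thus lay far below control mice 4 and 5, while control mouse 2, a library with few genes, lay within the knockout range.

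The mean was 31.0 ± 25.1 FPKM (SD, n = 3) in control mice, 2.48 ± 2.51 FPKM (SD, n = 4) in knockout mice and 2.13 ± 1.84 FPKM (SD, n = 3) in LPA-treated mice. The log2 fold change of Pdzk1 was -3.93 in knockout mice (95% interval -7.37 to -0.50, limma's adjusted p = 0.223) and -4.02 in LPA-treated mice (-7.69 to -0.35, limma's adjusted p = 0.264). Between LPA-treated and vehicle-treated knockout mice it was -0.08, with an interval from -3.52 to 3.35 that leaves even large differences undecided. The size depends on the small number added before the logarithm: with 1 in place of 0.1 the first difference was -2.91, and with 0.01 it was -4.79.

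Without control mouse 2 and knockout mouse 3, the Pdzk1 difference was -3.93 in knockout mice (limma's adjusted p = 0.0811) and -5.23 in LPA-treated mice (limma's adjusted p = 0.0274), where the gene was then called. With a term for these 2 libraries, both comparisons passed (-4.29 with limma's adjusted p = 0.0158, and -5.44 with 0.0114). DESeq2 also called both, with adjusted p-values of 0.0245 and 0.0332, and edgeR called neither (0.129 and 0.184). No fit that left out a single mouse called Pdzk1, with limma's adjusted p up to 0.399 and 0.583 in these comparisons. LPA-treated mouse 5 stayed in the fit without the 2 libraries and had its lowest Pdzk1 value, 0.0554 FPKM. The part of this mouse in that call was not tested.

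Few reads stood behind the knockout values of Pdzk1: 0, 62, 324 and 169 reads in knockout mice and 183, 168 and 2 reads in LPA-treated mice, against 104, 2195 and 1749 in control mice. Both 0 and 2 reads are under a floor of 3 reads, which is 0.101 FPKM in knockout mouse 3 and 0.0830 FPKM in LPA-treated mouse 5. The gene also shares its span with genes on the opposite strand, of which Gpr89 held 7928 reads over all libraries against 4956 on Pdzk1. Whether reads were assigned by strand is not stated, so reads of the 2 genes cannot be fully told apart.

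Pdzk1 lies on chromosome 3 from 96829284 to 96870926 on the plus strand (GRCm38, ENSMUSG00000038298), and RefSeq gives it 2 start sites. The 250 bases upstream of each are shown because Pdzk1 carried the largest difference among the 9 genes, and those of Slc9a3r1 because its level followed that of Pdzk1 across libraries. The sequences come from RefSeq on GRCm38.p6 and run 5′ to 3′ to the base before the start. Capitals mark matches on either strand to the CCAAT box (CCAAT), the GC box (GGGCGG), the TATA box (TATAAA), the core of a cAMP response element (TGACG), and partial sites of HNF1 (GTTAAT) and HNF4 (CAAAGTCC).
Pdzk1, first start, chr3:96829815-96830064, plus strand: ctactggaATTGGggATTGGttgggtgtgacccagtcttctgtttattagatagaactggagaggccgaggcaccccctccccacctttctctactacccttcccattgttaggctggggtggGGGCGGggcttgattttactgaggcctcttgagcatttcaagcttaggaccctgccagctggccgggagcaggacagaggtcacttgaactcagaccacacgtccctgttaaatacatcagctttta
Pdzk1, second start, chr3:96831921-96832170, plus strand: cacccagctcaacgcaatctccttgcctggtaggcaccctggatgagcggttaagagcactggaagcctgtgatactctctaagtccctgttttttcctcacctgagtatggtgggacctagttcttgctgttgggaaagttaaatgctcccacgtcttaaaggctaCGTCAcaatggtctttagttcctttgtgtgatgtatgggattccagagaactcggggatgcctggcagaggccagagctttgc
Slc9a3r1, chr11:115163091-115163340, plus strand: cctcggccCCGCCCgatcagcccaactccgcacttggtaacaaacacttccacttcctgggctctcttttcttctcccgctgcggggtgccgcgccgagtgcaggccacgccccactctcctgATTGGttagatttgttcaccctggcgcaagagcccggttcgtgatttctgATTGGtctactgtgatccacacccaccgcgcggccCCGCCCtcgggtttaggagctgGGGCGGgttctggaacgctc
The first Pdzk1 window held 2 CCAAT boxes and 1 GC box and opened no transcript of the GENCODE M21 annotation, whereas the second opened one and held a single TGACG from -83 to -79. The Slc9a3r1 window held 2 CCAAT boxes, from -127 to -123 and from -77 to -73, and 3 GC boxes. Over 32851 mouse promoter windows of this length, 33.8% held a CCAAT, 32.7% a GGGCGG and 17.8% a TGACG, so none of these is rare. A match is a description of letters and not a bound site.

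The other scaffold, Slc9a3r1, links NHE3 and CFTR through ezrin to the actin of the brush border and was, with Atp1b1, among the 2 most abundant of the 9 RNAs in every group by mean. Control mice 2, 4 and 5 had 600.0, 1109 and 1071 FPKM, and knockout mice 3, 5, 6 and 7 had 323, 441, 691 and 835 FPKM. With LPA, mice 1, 4 and 5 had 558, 539 and 218 FPKM, all below every control mouse. Knockout mice overlapped control mice only through control mouse 2.

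For Slc9a3r1 the log2 fold change was -0.74 in knockout mice (95% interval -1.75 to 0.27, limma's adjusted p = 0.438) and -1.15 in LPA-treated mice (-2.23 to -0.07, limma's adjusted p = 0.276). When the 2 libraries with few genes were left out it was -0.78 and -1.43 (limma's adjusted p = 0.295 and 0.0723). In LPA-treated mice, DESeq2 (adjusted p = 0.0161) and the fit with a term for the 2 libraries (-1.45, limma's adjusted p = 0.0384) called the gene, and edgeR did not (adjusted p = 0.126). Slc9a3r1 and Pdzk1 levels rose and fell together over the libraries, with a Pearson r of 0.94 for log2(FPKM + 0.1) over 10 libraries and 0.95 over the 8 libraries with many genes. With group means removed the r over 10 libraries was still 0.94. Those points share the same libraries and their depth, and the correlation is a description.

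**Figure D1:**
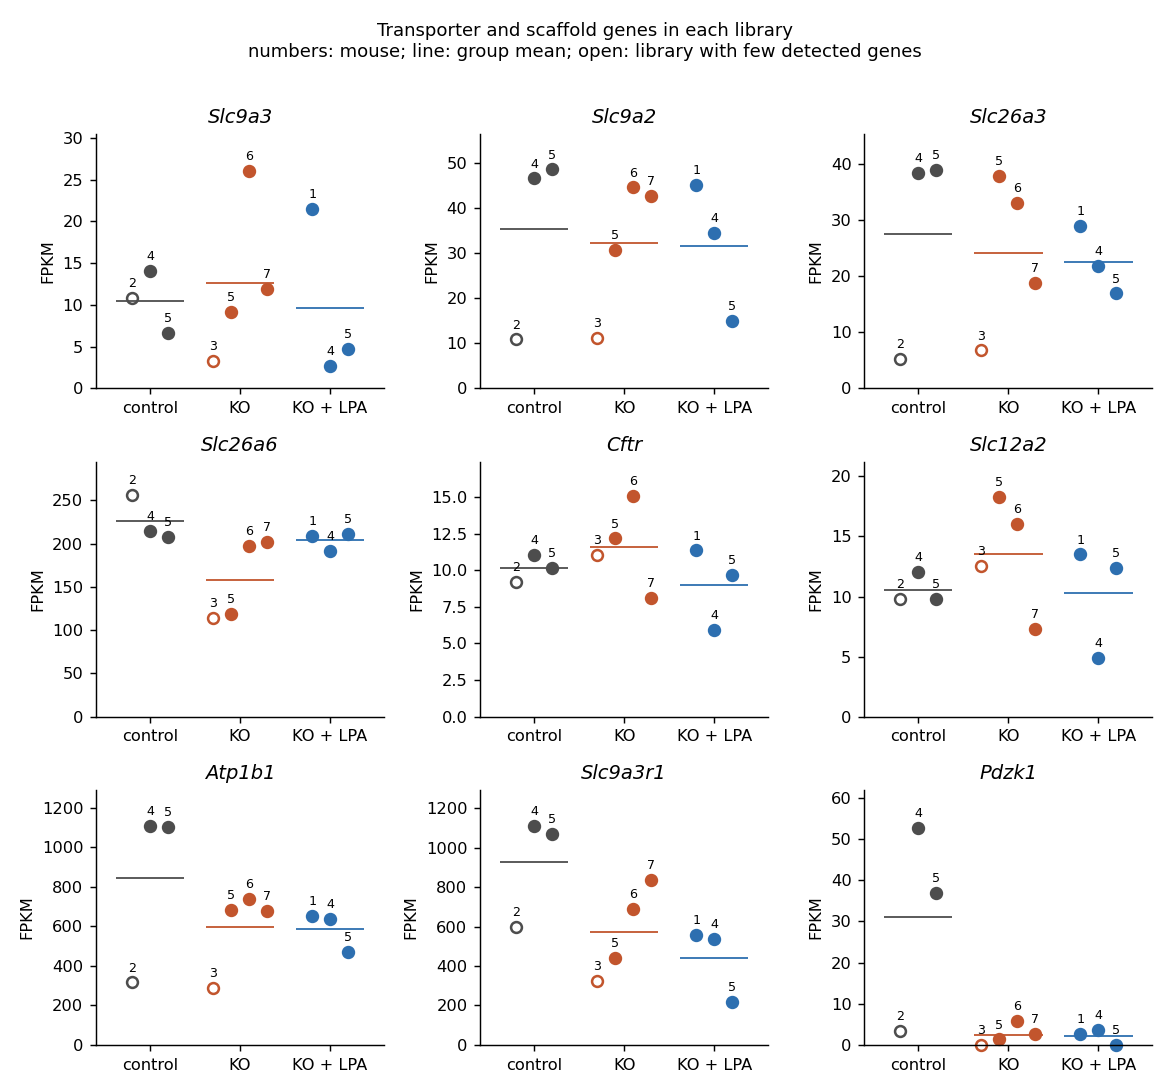
FPKM of the 9 genes in each of the 10 libraries (y axis, from 0) by group (x axis), with the mouse number above each point, a line at the group mean and open points for the libraries of control mouse 2 and knockout mouse 3, which detected few genes. Pdzk1 stands at 36.8 and 52.6 FPKM for control mice 5 and 4 and reaches at most 5.85 FPKM in the 7 knockout libraries, and the open points sit low for Slc9a2, Slc26a3 and Atp1b1.

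Slc9a3 encodes NHE3, the main apical sodium-hydrogen exchanger of jejunal sodium absorption. Its RNA reached 10.8, 14.1 and 6.61 FPKM in control mice 2, 4 and 5 and 3.30, 9.15, 26.1 and 11.9 FPKM in knockout mice 3, 5, 6 and 7. The LPA group (mice 1, 4 and 5) had 21.5, 2.69 and 4.67 FPKM. Both knockout groups spread on both sides of the control values, over a 9.69-fold range in all.

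Slc9a3 had a log2 fold change of -0.02 in knockout mice (95% interval -1.73 to 1.69, limma's adjusted p = 0.995) and -0.61 in LPA-treated mice (-2.44 to 1.22, limma's adjusted p = 0.744). Its sign in knockout mice was not stable, with 0.55 without the 2 libraries with few genes. From vehicle to LPA treatment it was -0.59, and without LPA-treated mouse 1, the mouse with the conflicting label, -1.45. The authors' model of this gene ends 3378 bases before the 3′ end of the GENCODE M21 gene, so reads from the last part of the transcript may not have been counted.

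Slc9a2 encodes NHE2, a second apical exchanger. Its levels were 10.8, 46.5 and 48.5 FPKM in control mice 2, 4 and 5 and 11.1, 30.6, 44.5 and 42.7 FPKM in knockout mice 3, 5, 6 and 7. After LPA, mice 1, 4 and 5 had 45.1, 34.4 and 15.0 FPKM. The lowest control and the lowest knockout values were both in the libraries with few genes.
With all libraries the log2 fold change of Slc9a2 was -0.03 in knockout mice (95% interval -1.48 to 1.41) and -0.02 in LPA-treated mice (-1.57 to 1.52). Without those 2 libraries it was -0.29 and -0.73, with every remaining knockout mouse below both control mice and limma's adjusted p at 0.692 and 0.287.

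Slc26a3 encodes DRA, the apical chloride-bicarbonate exchanger whose loss causes congenital chloride diarrhea. Its RNA in control mice 2, 4 and 5 was at 5.18, 38.4 and 38.8 FPKM, and knockout mice 3, 5, 6 and 7 had 6.75, 37.9, 33.0 and 18.8 FPKM. LPA-treated mice 1, 4 and 5 had 28.9, 21.8 and 16.9 FPKM. Here too the 2 libraries with few genes were the lowest of all 10.
The log2 fold change of Slc26a3 was 0.01 in knockout mice (95% interval -1.67 to 1.69) and 0.15 in LPA-treated mice (-1.65 to 1.95), each with the sign turned by other scalings of the libraries. Leaving them out gave differences of -0.43 (limma's adjusted p = 0.446) and -0.81 (limma's adjusted p = 0.160). The 5 remaining control and vehicle-treated knockout libraries then did not overlap, although knockout mouse 5 at 37.9 FPKM lay close to control mouse 4.

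Slc26a6 encodes PAT1, an apical exchanger of chloride, oxalate and bicarbonate and its RNA was the more abundant of the 2 anion exchangers in these cells. Control mice 2, 4 and 5 had 256, 215 and 208 FPKM, whereas knockout mice 3, 5, 6 and 7 had 114, 119, 197 and 202 FPKM. In the LPA group, mice 1, 4 and 5 had 209, 192 and 211 FPKM. Every vehicle-treated knockout mouse lay below every control mouse, and LPA-treated mice overlapped both other groups.
Slc26a6 was the only 1 of the 9 genes without overlap between knockout and control mice, where 17.2% of all tested genes had none. The log2 fold change was -0.56 (95% interval -1.19 to 0.06, limma's adjusted p = 0.332), or -0.33 when the 2 libraries with few genes were left out (limma's adjusted p = 0.461). In LPA-treated mice it was -0.14 (-0.81 to 0.52), and between LPA-treated and vehicle-treated knockout mice 0.42 (-0.20 to 1.04).

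Cftr encodes the chloride channel of the apical membrane that opens with cAMP and cGMP. Control mice 2, 4 and 5 had 9.21, 11.02 and 10.1 FPKM. Knockout mice 3, 5, 6 and 7 had 11.03, 12.2, 15.1 and 8.10 FPKM, and LPA-treated mice 1, 4 and 5 had 11.4, 5.94 and 9.69 FPKM. The control mice were close together and lay inside the range of both knockout groups.
Cftr had a log2 fold change of 0.16 in knockout mice (95% interval -0.56 to 0.88, limma's adjusted p = 0.833), which turned to -0.13 under median-ratio scaling of the libraries. In LPA-treated mice it was -0.21 (-0.98 to 0.55). The 2 knockout groups differed by -0.38 (-1.10 to 0.34). The values were nearly the same without the 2 libraries with few genes (0.11, -0.28 and -0.39).

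Slc12a2 encodes NKCC1, which loads secretory cells with chloride. Control mice 2, 4 and 5 had 9.79, 12.04 and 9.78 FPKM, and the knockout mice 3, 5, 6 and 7 had 12.6, 18.3, 16.1 and 7.27 FPKM. Under LPA, mice 1, 4 and 5 had 13.5, 4.91 and 12.4 FPKM. Of the knockout mice, 3 of 4 lay above all controls and mouse 7 below them.
The log2 fold change of Slc12a2 was 0.29 in knockout mice (95% interval -0.66 to 1.24, limma's adjusted p = 0.774), the median difference over all genes being 0.29 as well, and it was -0.0034 after scaling by the median of ratios. In LPA-treated mice the difference was -0.16 (-1.18 to 0.86), and between both knockout groups -0.45 (-1.40 to 0.50).

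Cftr and Slc12a2, the exit and the entry step of chloride secretion, were high and low in much the same libraries. The ratio of their FPKM, Cftr over Slc12a2, ranged from 0.667 to 1.21, and the genes themselves varied 2.54-fold and 3.72-fold. Their Pearson r was 0.94 over 10 libraries and 0.94 over the 8 with many genes. Among 10575 genes averaging 1 FPKM or more, each was the gene most like the other. The next most like Cftr were Baz1b and Nudcd3 (r of 0.90 and 0.89), and the next most like Slc12a2 were Auts2 and Aste1 (0.90 and 0.89).

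By the same measure genes most like Slc9a3 included Kat6a and Chd9 (r of 0.93 and 0.92). Those most like Slc26a3 were Map2k6, Usp33 and Mat2b, each with an r of 0.99 over 10 libraries and of 0.96, 0.97 and 0.95 over the 8 with many genes. The r with Cftr was 0.63 for Slc9a3 and 0.26 for Slc26a3 over 10 libraries, and 0.78 and 0.60 over 8. Slc9a2 and Slc12a2 had an r of -0.06 and the anion exchangers Slc26a3 and Slc26a6 of 0.02 over 10 libraries.

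**Figure D2:**
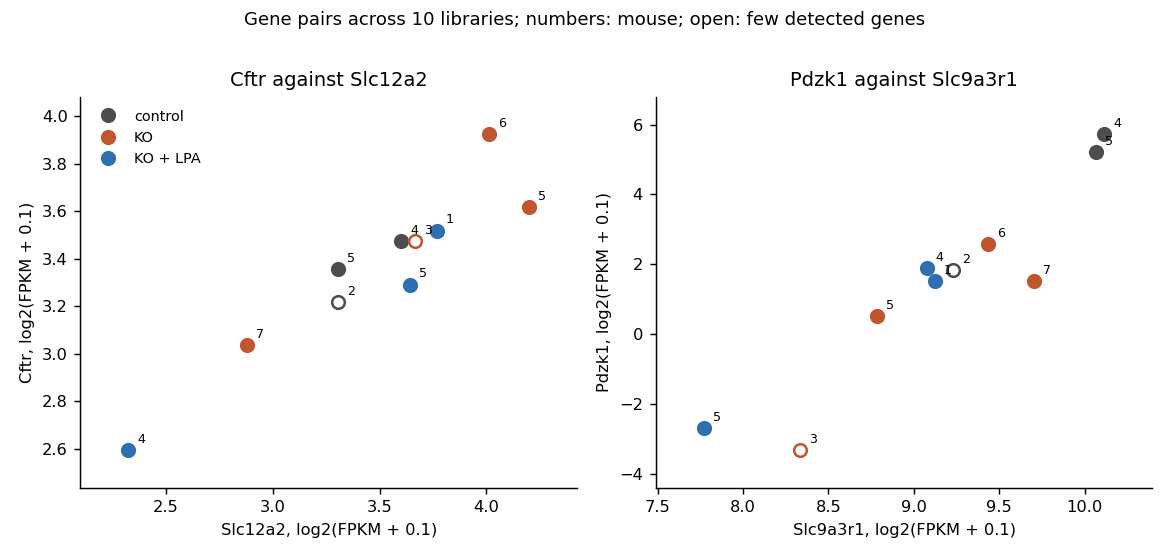
Each point is 1 of the 10 libraries, coloured by group and numbered by mouse, with open points for the 2 libraries with few genes; both axes are log2(FPKM + 0.1). Cftr against Slc12a2 (left) lies near a single line from LPA-treated mouse 4 to knockout mouse 6 with the groups mixed, and Pdzk1 against Slc9a3r1 (right) has control mice 4 and 5 at the top and LPA-treated mouse 5 and knockout mouse 3 at the bottom.

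The upstream windows of Slc26a3, which serves chloride uptake in villus cells, and Cftr, which serves chloride exit, are shown because their letters differ. The pair was picked for this contrast and does not stand for absorptive and secretory genes in general.
Slc26a3, chr12:31437969-31438218, plus strand: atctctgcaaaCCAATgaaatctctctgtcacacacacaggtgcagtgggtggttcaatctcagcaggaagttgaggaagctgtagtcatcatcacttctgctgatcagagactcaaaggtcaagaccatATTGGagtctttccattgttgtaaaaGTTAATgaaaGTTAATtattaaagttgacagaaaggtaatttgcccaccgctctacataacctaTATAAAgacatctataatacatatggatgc
Cftr, chr6:18170437-18170686, plus strand: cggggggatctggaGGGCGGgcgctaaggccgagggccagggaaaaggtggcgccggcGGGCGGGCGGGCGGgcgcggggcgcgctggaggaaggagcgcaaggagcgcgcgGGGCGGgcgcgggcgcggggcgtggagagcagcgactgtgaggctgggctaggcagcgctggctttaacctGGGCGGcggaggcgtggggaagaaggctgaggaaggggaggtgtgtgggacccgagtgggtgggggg
The Slc26a3 window had a GC content of 38.8%, a TATAAA from -30 to -25 and 2 GTTAAT partial sites, from -94 to -89 and from -84 to -79, beside 2 CCAAT boxes. The Cftr window had a GC content of 76.4% and 6 GC boxes, 3 of them overlapping in a run from -192 to -179, and none of the other motifs. The window of Slc9a3, also an absorptive gene, had a GC content of 67.6%, 3 GC boxes and none of the other motifs. That of Slc26a6 had a GC content of 53.2%, 2 CCAAT boxes and 1 GC box. Over all windows the median GC content was 52.4%, 12.4% held a TATAAA and 6.43% a GTTAAT. No CAAAGTCC, held by 1.20% of all windows, was in any of the 8 windows found for 7 of the 9 genes. Slc9a2 and Slc12a2 had no entry.

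Atp1b1 encodes the beta subunit that carries the Na,K-ATPase to the basolateral membrane. For control mice 2, 4 and 5 the levels were 316, 1110.5 and 1102 FPKM, compared with 287, 682, 738 and 679 FPKM in knockout mice 3, 5, 6 and 7. Mice 1, 4 and 5 of the LPA group had 651, 637 and 473 FPKM. Outside the 2 libraries with few genes, all control mice lay above all knockout mice, and vehicle-treated above LPA-treated knockout mice.
The log2 fold change of Atp1b1 was -0.38 in knockout mice (95% interval -1.49 to 0.73, limma's adjusted p = 0.736) and -0.33 in LPA-treated mice (-1.51 to 0.86, limma's adjusted p = 0.792). Without the 2 libraries it was -0.66 (-1.22 to -0.10, limma's adjusted p = 0.135) and -0.93 (-1.49 to -0.37, limma's adjusted p = 0.0458), and the second was then called. With a term for the 2 libraries it was called there too (-0.84, limma's adjusted p = 0.0462), but neither edgeR nor DESeq2 called it with all libraries (adjusted p = 0.387 and 0.202). LPA-treated mouse 5 was kept in these fits and had the lowest Atp1b1 outside the 2 libraries, at 473 FPKM. Its deviations from the group mean over all genes correlated with those of control mouse 2 and knockout mouse 3 (r of 0.44 and 0.48). The part of this mouse in the calls was not tested. Atp1b1 and Pdzk1 had an r of 0.79 over 10 libraries and of 0.96 over 8.

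**Figure D3:**
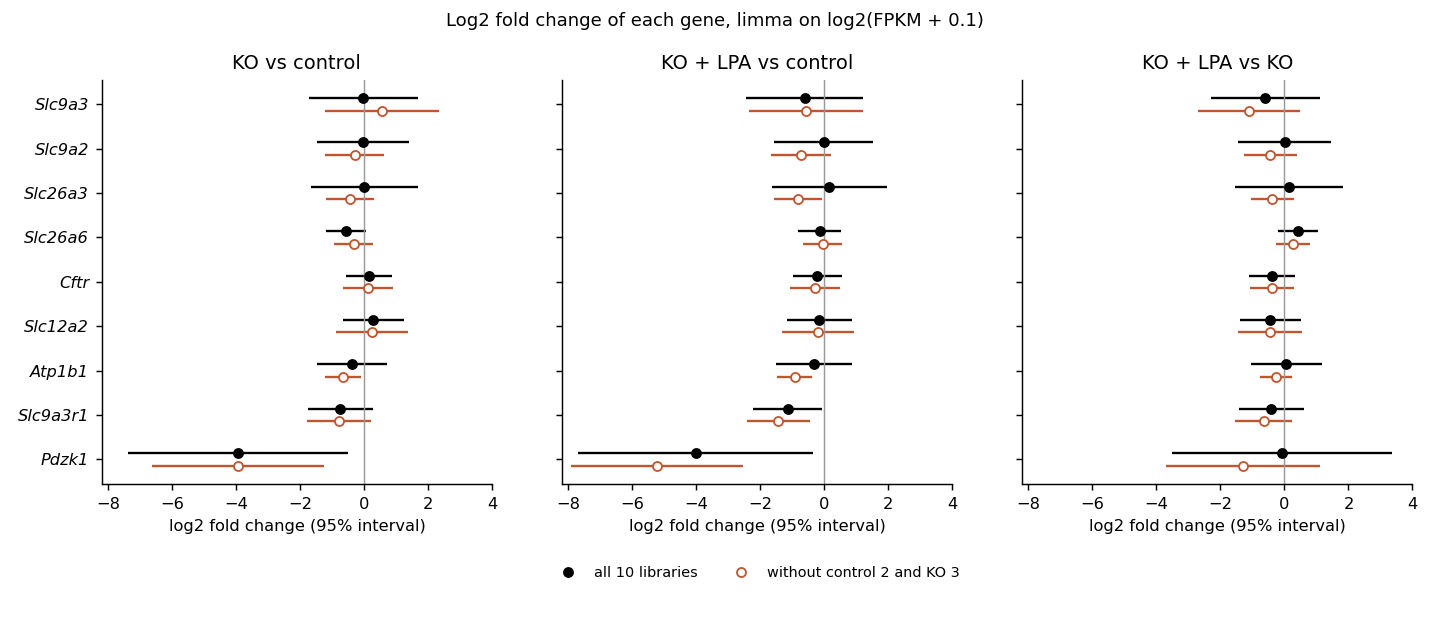
Log2 fold changes of the 9 genes (x axis, log2(FPKM + 0.1) scale) with their 95% intervals in 3 comparisons, with all 10 libraries (filled points) and without control mouse 2 and knockout mouse 3 (open points). With all libraries only the intervals of Pdzk1 in knockout mice, and of Slc9a3r1 and Pdzk1 in LPA-treated mice, lie below 0, and in the right panel every interval includes 0.

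As a list, 6 of the 9 genes were lower in knockout than in control mice and the median log2 fold change was -0.03, beside 0.29 over all tested genes, of which 36.6% were lower. In LPA-treated mice 8 of 9 were lower with a median of -0.21, beside 0.41 over all genes. The median over all genes depends on the scaling of the libraries. Scaling by the median of ratios brought it to 0.04 and 0.10. All 9 members were then lower in both comparisons, with medians of -0.32 and -0.58, as were 48.1% and 44.1% of all genes. Relative to the all-gene median, the differences of Slc26a6, Atp1b1, Slc9a3r1 and Pdzk1 in knockout mice were -0.85, -0.67, -1.02 and -4.22 as deposited and -0.89, -0.71, -1.07 and -4.37 after that scaling. These were the lowest of the 9. Slc9a3, Slc9a2, Slc26a3, Cftr and Slc12a2 were nearer the median, at -0.31, -0.32, -0.27, -0.12 and 0.00026 as deposited. After that scaling they were at -0.35, -0.36, -0.32, -0.16 and -0.042.

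Without the 2 libraries with few genes, 0 of 9 members were called in knockout mice, where 6.52% of all genes were, and 2 of 9 (Atp1b1 and Pdzk1) in LPA-treated mice, where 9.98% were. At an unadjusted p under 0.05 these were 2 and 4 members, against 25.5% and 26.9% of all genes. Groups then did not overlap for 6 members in knockout mice (all genes 56.1%) and for 5 in LPA-treated mice (all genes 45.1%), so these counts are read against a high background. With all libraries, LPA-treated and control mice failed to overlap for 1 member, Slc9a3r1 (all genes 26.9%).

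Between LPA-treated and vehicle-treated knockout mice, 5 of 9 members were lower, with a median log2 fold change of -0.08 beside 0.11 over all genes. Groups overlapped for all 9 (4.16% of all genes did not overlap). Without the 2 libraries with few genes the count called was 0 of 9 (all genes 0%, with 1672 of them at an unadjusted p under 0.05), and Atp1b1 alone did not overlap (all genes 11.7%). Each of the 3 comparisons shares its mice with the other two.

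Over all 3 control mice the 9 RNAs stood at 3 levels. Slc9a3r1 and Atp1b1, with means of 927 ± 284 and 843 ± 456 FPKM (SD, n = 3), overlapped each other, and Slc26a6 at 226 ± 25.9 FPKM lay below both. Slc9a2 (35.3 ± 21.2 FPKM), Pdzk1 (31.0 ± 25.1 FPKM), Slc26a3 (27.5 ± 19.3 FPKM), Slc12a2 (10.5 ± 1.31 FPKM), Slc9a3 (10.5 ± 3.74 FPKM) and Cftr (10.1 ± 0.908 FPKM) overlapped as neighbours in that order. In both knockout groups Pdzk1 moved from the fifth place to the last, at 2.48 and 2.13 FPKM, although in LPA-treated mouse 4 it stood above Slc9a3, with 3.58 against 2.69 FPKM. Atp1b1 and Slc9a3r1 overlapped in every group, and their order in control mice rested on control mouse 2, without which their means were 1106 and 1090.0 FPKM. The authors' models of Slc9a3, Slc9a2 and Atp1b1 end 3378, 388 and 158 bases before the 3′ end of the GENCODE M21 genes. The part of this in the order of the genes was not tested.

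Of 76 further genes of salt, chloride, bicarbonate, potassium and water transport and its control, 62 passed the level filter. In knockout mice 1 of the 62 rose and 1 fell, in LPA-treated mice 1 rose, and between both knockout groups 0 passed limma's adjusted p. Of all genes 2.01%, 2.32% and 0% passed. At an unadjusted p under 0.05 there were 11, 13 and 4 of the 62 genes, where all genes gave 17.6%, 16.4% and 2.92%. The numbers called were 1, 2 and 0 by edgeR (all genes 3.82%, 3.1% and 0%) and 8, 13 and 0 by DESeq2 (all genes 11.5%, 9.61% and 0.0224%). With median-ratio scaling 0 rose and 2 fell in knockout mice (Fxyd5 and Prkg2) and 0 rose and 2 fell in LPA-treated mice (Car4 and Ano6). With that scaling 3.8% and 3.12% of all genes passed. The median log2 fold changes of the 62 genes as deposited were -0.08, 0.03 and 0.04. With all libraries and FPKM as deposited, the 2 genes past limma's adjusted p belonged to the kinases. In that fit none was of the sodium-hydrogen exchanger, anion exchanger, chloride channel, cation-chloride cotransporter, ATPase, potassium channel, sodium channel, scaffold or aquaporin lists. Of the genes named with median-ratio scaling, Fxyd5 was of the ATPase, Car4 of the anion exchanger and Ano6 of the chloride channel list.

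The gene that rose was Stk39, which encodes SPAK, a kinase that phosphorylates and activates NKCC1. In control mice 2, 4 and 5 it had 7.50, 10.1 and 6.80 FPKM, knockout mice 3, 5, 6 and 7 had 26.9, 22.0, 17.6 and 16.4 FPKM, and mice 1, 4 and 5 of the LPA group had 28.1, 24.3 and 25.3 FPKM. Both knockout groups lay wholly above the control mice.
Stk39 differed by a log2 fold change of 1.33 in knockout mice (SE 0.27, limma's adjusted p = 0.0392) and 1.68 in LPA-treated mice (SE 0.29, limma's adjusted p = 0.0185). Both stayed past the threshold when the 2 libraries with few genes were left out (1.15 and 1.63, limma's adjusted p = 0.0305 and 0.00541). The call was lost with edgeR (adjusted p = 0.0989 and 0.0900) and after scaling by the median of ratios (1.05 and 1.31, limma's adjusted p = 0.132 and 0.102), and it held in 1 and 6 of the 10 fits that left out a mouse.

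The gene that fell was Prkg2, which encodes a membrane-bound cGMP-dependent kinase that acts on CFTR and NHE3 below the guanylyl cyclase of the brush border. Its level in control mice 2, 4 and 5 was 26.9, 25.7 and 25.1 FPKM, knockout mice 3, 5, 6 and 7 had 9.41, 5.98, 11.96 and 7.78 FPKM, and LPA-treated mice 1, 4 and 5 had 5.49, 8.03 and 13.2 FPKM. The 3 control mice were nearly equal, and all 7 knockout mice lay well below them.
Prkg2 differed by a log2 fold change of -1.59 in knockout mice (SE 0.35, limma's adjusted p = 0.0499), just past the threshold, and -1.62 in LPA-treated mice (SE 0.38, limma's adjusted p = 0.0559), just short of it. Both passed when the 2 libraries with few genes were left out (-1.61 and -1.59, limma's adjusted p = 0.0449 and 0.0361). In knockout mice it passed in 0 of the 10 fits that left out a mouse, where limma's adjusted p reached 0.166 without control mouse 5.

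**Figure D4:**
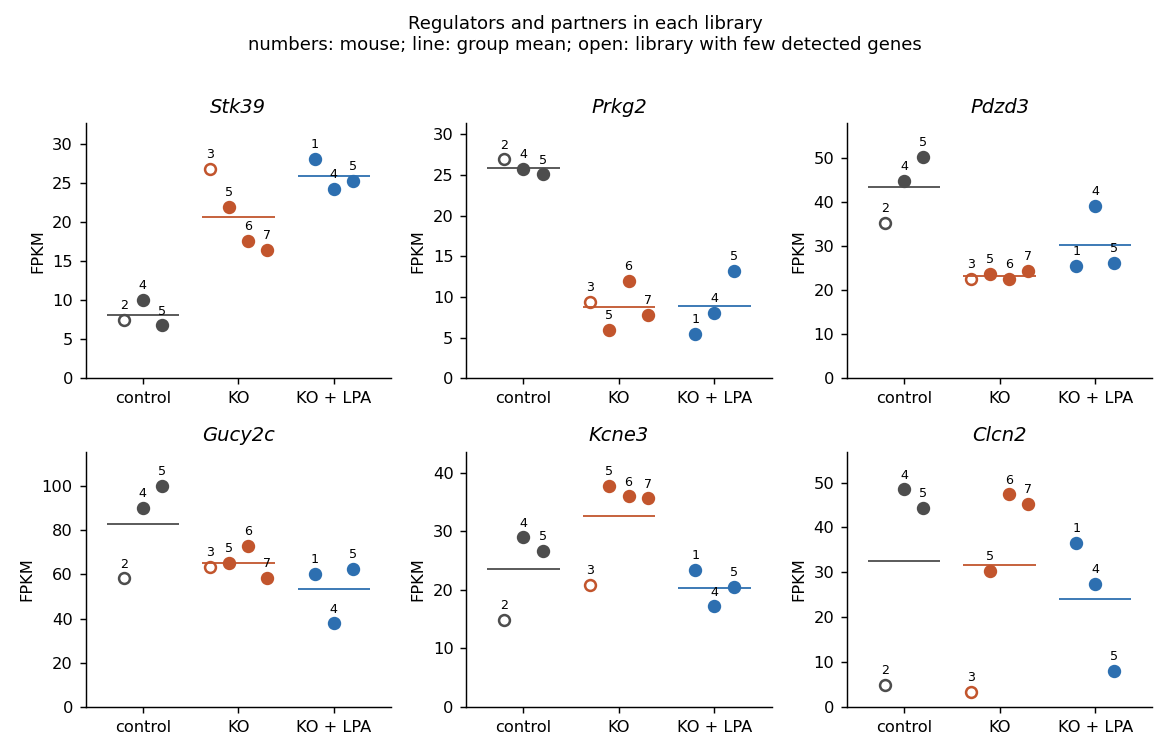
FPKM of 6 regulators and partners in each library (y axis, from 0) by group, drawn as for the 9 genes. Stk39 is at 6.80 to 10.1 FPKM in control mice and at 16.4 to 28.1 FPKM in the 7 knockout libraries, Prkg2 at 25.1 to 26.9 and 5.49 to 13.2 FPKM, and Clcn2 is low in the 2 libraries drawn open.

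The partners described next did not pass limma's adjusted p in knockout mice. Pdzd3, a scaffold that binds the guanylyl cyclase C of the brush border, had 35.2, 44.8 and 50.2 FPKM in control mice 2, 4 and 5. Knockout mice 3, 5, 6 and 7 were close together with 22.6, 23.7, 22.6 and 24.4 FPKM, and mice 1, 4 and 5 given LPA had 25.5, 39.0 and 26.2 FPKM. The vehicle-treated knockout mice lay below both other groups without overlap.
Pdzd3 differed in knockout mice by a log2 fold change of -0.88 (SE 0.25, limma's adjusted p = 0.103), or -1.01 when the 2 libraries with few genes were left out (limma's adjusted p = 0.0401). Between LPA-treated and vehicle-treated knockout mice it was 0.35 (SE 0.25, limma's adjusted p = 1).

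Gucy2c, the guanylyl cyclase C receptor for guanylin, averaged 82.8 ± 21.8 FPKM (SD, n = 3) in control mice, 64.9 ± 6.07 FPKM (SD, n = 4) in knockout mice and 53.5 ± 13.6 FPKM (SD, n = 3) in LPA-treated mice. The basolateral potassium channel genes Kcnq1 and Kcne3, whose products keep the driving force for chloride exit, had log2 fold changes of -0.16 and 0.49 in knockout mice. With LPA against vehicle, Kcne3 differed by -0.65 (SE 0.33, limma's adjusted p = 1). In knockout mice Ezr, the actin linker, differed by -0.10, the bicarbonate cotransporter Slc4a4 by -0.35, the chloride channel Clcn2 by -0.02 and the scaffold Slc9a3r2, which stayed under 1.3 FPKM in every library, by 1.07. Limma's adjusted p of these 7 genes in knockout mice was 0.476 or above.

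The cells were also checked by markers, since fewer cells of a type and less RNA per cell cannot be told apart in such samples. Against control mice, 2.01% of all tested genes passed limma's adjusted p in knockout mice and 2.32% in LPA-treated mice. Lower than in control mice were 36.6% and 29.996% of all genes. Without the 2 libraries with few genes, 9.98% passed in LPA-treated mice and 43.1% were lower there. The marker counts are read against these shares. The summed FPKM of 15 villus enterocyte markers was 42247 to 55656 in control mice, 21593 to 36897 in knockout mice and 33224 to 61970 in LPA-treated mice, and 11 of 15 were lower in knockout than in control mice, 1 of them past limma's adjusted p. Against control mice, 9 of these 15 were lower in LPA-treated mice, 1 past the threshold. Without the 2 libraries with few genes 11 were lower there, 4 past it. The summed FPKM of 12 markers of proliferating crypt cells was 113 to 146, 272 to 431 and 189 to 353, with 12 of 12 higher in knockout mice, 1 of them past the threshold. Those of 12 leukocyte markers were 1598 to 2604, 57.7 to 1016 and 170 to 259, with 12 of 12 lower in knockout mice, 3 of them past it. The sum of 9 stromal and endothelial markers was at most 6.47 FPKM in any library, and that of 5 smooth muscle markers at most 8.51 FPKM. The sum of 6 tuft cell markers was 13.5 to 19.0 FPKM in control, 5.79 to 8.46 in knockout and 7.58 to 11.2 in LPA-treated mice, so both knockout groups lay below every control mouse, and 1 of the 5 tested passed in knockout mice, lower. That of 6 Paneth cell markers was 3851 to 10491, 3501 to 6088 and 1057 to 4024 FPKM. In LPA-treated against control mice 5 of these 6 were lower, 0 past the threshold with all libraries and 4 without the 2 with few genes. Goblet cell markers, 7 in all, summed to 10262 to 12084, 7254 to 11874 and 11867 to 21681 FPKM, with 1 called higher in LPA-treated mice. Sums overlapped between all groups for 6 stem cell markers (32.8 to 136, 13.3 to 98.1 and 15.1 to 94.3 FPKM) and 7 enteroendocrine markers (495 to 1491, 269 to 839 and 388 to 1108 FPKM). By gene, 5 of 6 stem cell markers were lower than in control mice in knockout and 5 of 6 in LPA-treated mice, 0 and 1 past the threshold. Of the enteroendocrine markers 5 of 7 and 2 of 7 were lower, 0 past it. No marker of these lists was at 0 in every library, and the part of such shifts in the differences of the 9 genes was not tested.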

How the data were processed

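RNA of jejunal epithelial cells from 10 mice was sequenced from poly(A)-selected libraries. Per the labels, the submitters' processing notes name STAR 2.5, HTSeq 0.6.1, TopHat and DESeq2 and the builds GRCm38 and mm10. The authors deposited FPKM for 35275 genes, with no scaling between libraries stated, and read counts for a few genes. Multiplied by gene length, 100% of the FPKM were whole multiples of a single read within 0.1, and 63 of 63 deposited counts equalled the recovered reads, which edgeR 4.0.16 and DESeq2 1.42.0 used as alternatives. Columns that hold the authors' fold changes and p-values, and lists of enriched KEGG pathways, were not used. The log2 of FPKM + 0.1 was fitted with limma 3.58.1 (R 4.3.3) over the 15729 genes whose mean reached 0.1 FPKM, with 3 groups in a single model, a trended variance, a two-sided moderated test and Benjamini-Hochberg adjustment. The fits were tested on simulated reads of a fixed spread, with no library modelled on the 2 with few genes. That test does not measure how the fits perform on these libraries. Each library is a separate mouse. The 9 genes, the 76 further genes and the marker lists were chosen with earlier results of these data known. Named were the 9 genes, further transport genes past an adjusted p of 0.05, 9 fixed partners, Myo5b, and the 3 genes most like Slc9a3, Slc26a3, Cftr and Slc12a2 by Pearson's r. Mouse numbers are shared between groups but do not mark littermates in the labels. Other pseudocounts, filters and scalings, a fit of 2 groups, a replicate block and leaving out each mouse were planned; 3 further alternatives were added after seeing the data. Promoter windows were RefSeq's on GRCm38.p6. Protein sequences were not used here, and 2 genes that the rule names are not reported.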

Additional observations from a re-analysis of the deposited data

Results flagged for a closer look

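Atp1b1 in MYO5B-knockout mouse 3 was at 287 FPKM, far from the other 3 knockout mice at 679 to 738 FPKM. The gap to its nearest neighbour was 0.868 of the range of the 4 mice, above Dixon's 95% critical value for 4 values. This is 1 of the 9 genes tested in the only group of 4, and chance alone flags about 1 in 20 such groups. The library is 1 of the 2 with few detected genes.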

How the results depend on the processing

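Of the members only Pdzk1 had under 3 reads in a library, which held for 2 libraries. Groups held 3 to 4 mice. Control mouse 2 and knockout mouse 3 had the fewest reads on genes, 11044627 and 10949420. The parts of depth and of the spread between mice in the intervals were not tested. The number of genes called in knockout mice was 316, and 519 with edgeR, 1768 with DESeq2, 598 with median-ratio scaling, 804 with quantile normalization, 188 with no filter, 54 with only the 2 groups compared, 1032 without both libraries with few genes and 2449 with a term for them. In LPA-treated against control mice it was 365, and 1471 with DESeq2, 626 with quantile normalization, 243 with only the 2 groups compared, 1579 without both libraries with few genes and 1800 with a term for them. Between both knockout groups it was 0, and 5 with DESeq2. The members called in these 3 comparisons were 0 in each, and 1, 2 and 0 with DESeq2, 0, 2 and 0 without both libraries with few genes, and 1, 3 and 0 with a term for them. With each mouse left out the genes called ranged from 44 to 448, from 75 to 719 and from 0 to 0, and the members called from 0 to 0. The cause was not tested.

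The correlations of deviations of same-numbered mice ran from -0.36 to 0.30. Such pairs were too few to settle whether the mouse numbers pair the samples. A replicate block called 302, 311 and 0 genes and 0 members, and moved Prkg2 in knockout mice to limma's adjusted p of 0.0507.

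Signs of uncalled members turned as follows. In knockout against control mice, Slc26a3 was -0.28, Cftr -0.13 and Slc12a2 -0.0034 with median-ratio scaling. With quantile normalization Slc26a3 was -0.15, Cftr -0.060 and Ezr 0.019. With edgeR Slc26a3 was -0.42 and Cftr -0.074, and with DESeq2 -0.44 and -0.095. With a pseudocount of 1 Slc9a3 was 0.0078 and Slc26a3 -0.0073. Without both libraries with few genes Slc9a3 was 0.55 and Slc26a3 -0.43, which was -0.19 with a term for them. Without the 2 libraries with Xist, Slc9a3 was 0.50, Slc9a2 0.41, Ezr 0.25, Slc4a4 0.33 and Clcn2 0.86. Between both knockout groups, Slc9a2 and Atp1b1 were -0.071 and -0.028 with median-ratio scaling and -0.11 and -0.069 with quantile normalization. Slc9a2, Slc26a3 and Atp1b1 were -0.062, -0.066 and -0.041 with edgeR, -0.057, -0.057 and -0.039 with DESeq2, -0.44, -0.38 and -0.27 without both libraries with few genes, -0.48, -0.47 and -0.33 with a term for them, and -0.77, -0.58 and -0.35 without the libraries with Xist. Pdzk1 was 0.34 there with a pseudocount of 0.01. In LPA-treated against control mice, Slc26a3 was -0.22, -0.14, -0.48 and -0.50 with median-ratio scaling, quantile normalization, edgeR and DESeq2, -0.81 without both libraries with few genes, -0.67 with a term for them and -0.048 without the libraries with Xist.

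With each mouse left out, in knockout mice Slc9a3 ranged from -0.48 to 0.50, Slc9a2 from -0.74 to 0.41, Slc26a3 from -0.95 to 0.53, Ezr from -0.45 to 0.25, Kcnq1 from -0.40 to 0.013, Slc4a4 from -0.99 to 0.33 and Clcn2 from -1.09 to 0.86. In LPA-treated against control mice Slc9a3 ranged from -1.47 to 0.0064, Slc9a2 from -0.73 to 0.44, Slc26a3 from -0.81 to 0.63, Cftr from -0.41 to 0.055 and Slc12a2 from -0.42 to 0.30. Between both knockout groups Slc9a3 ranged from -1.45 to 0.027, Slc9a2 from -0.44 to 0.47, Slc26a3 from -0.38 to 0.44, Slc12a2 from -0.72 to 0.014, Atp1b1 from -0.27 to 0.20, Slc9a3r1 from -0.65 to 0.035 and Pdzk1 from -1.30 to 1.38.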
